A study of Mus musculus with 18 samples.

Results

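Cytosolic ribosomal protein genes were followed over 6 times of day in the mouse distal colon. A gene was taken when a probe set carried a single platform symbol made of Rpl or Rps and a number, or the symbol Rpsa, Rplp0, Rplp1 or Rplp2, with the Rps6k kinases left out, and the probe set with the highest mean signal stood for the gene. The rule found 49 of the 18193 genes with a single symbol, 26 of the large and 23 of the small ribosomal subunit. Among them were 6 genes named as relatives of a core gene (Rpl22l1, Rpl39l, Rpl3l, Rpl7l1, Rps27l and Rps4l). A filter on low signal was passed by 46 of the 49, and Rps16, Rpl3l and Rpl39l were not tested. A further 28 ribosomal protein symbols, Rpl10 and Rplp1 among them, occurred only on probe sets that carry several symbols and were not analysed here.

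The ribosome is the particle that translates messenger RNA. Its small subunit reads the message, and its large subunit joins amino acids into protein. Ribosomal proteins are needed in equal numbers, and their messenger RNAs share a run of pyrimidines (C and U) at the very 5′ end, the terminal oligopyrimidine or TOP motif, through which the kinase mTOR controls their translation. In mouse liver the translation of these messages is known to follow the daily feeding cycle, while their amounts change less. The colon epithelium renews itself continuously and makes large amounts of protein.

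The mice lived under 12 h of light, beginning at clock hour 7, and 12 h of darkness, and could eat at any time. Distal colon was collected at 8am, 12pm and 4pm in the light and at 8pm, 12am and 4am in the dark, with 3 arrays per time (a, b and c). Strain, age, sex and the number of mice per array are not given in the sources used here. Nor is it said whether arrays a, b and c are different animals, so a p value here reflects only how far these samples scatter. The tissue was whole resected colon, in which fewer cells of a type and less RNA per cell cannot be told apart. Signals are the authors' linear values, scaled so that the trimmed mean of every array is 500. They are not comparable between probe sets as transcript levels, so each gene was compared only with itself, and sums over markers weigh bright sets most.

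All 13 colon epithelial markers had a median signal of at least 1484 over the 18 arrays. The ratio of the 3′ to the 5′ probe sets of the Gapdh control, which rises when RNA is degraded, was 34.3 in 4pm b, 36.0 in 4am a and 18.2 in 4am b. It was 2.33 in 4pm c and at most 1.12 in the other 14 arrays. These 3 arrays stand apart, and results that rest on them are given with and without them. Without them 4am keeps 1 array, which the fit assumes to vary like the other groups. The clock output gene Dbp served as the positive control of the rhythm test. It had a fitted log2 amplitude of 2.16 ± 0.19 (SE), a peak 10.8 h after lights on and a limma adjusted p of 1.81e-05.

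The sequence around the transcription start is shown for members that the results turn on, because the TOP motif begins there. RefSeq promoter windows on mouse build GRCm38.p6 were matched for 43 of the 49 members. Rpl7, Rpl8, Rps14, Rps20, Rps29 and Rps4l had none in the table used. Each line gives 15 bases before and 15 after the annotated start on the strand of the gene, and capitals mark an unbroken run of at least 6 pyrimidines (C or T).
Rpl7a, chr2:26910792-26910821, plus strand: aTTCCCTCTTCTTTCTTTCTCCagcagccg
Rpl4, chr9:64173372-64173401, plus strand: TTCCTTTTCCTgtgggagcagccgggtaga
Rps10, chr17:27635230-27635259, minus strand: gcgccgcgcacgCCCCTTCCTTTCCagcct
Rpl38, chr11:114668565-114668594, plus strand: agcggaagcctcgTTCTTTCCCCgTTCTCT
Rps24, chr14:24490663-24490692, plus strand: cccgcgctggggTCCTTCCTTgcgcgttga
Rplp0, chr5:115559452-115559481, plus strand: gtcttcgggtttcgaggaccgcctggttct
Rpl41, chr10:128549154-128549183, minus strand: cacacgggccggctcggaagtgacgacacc
Rps27, chr3:90213634-90213663, minus strand: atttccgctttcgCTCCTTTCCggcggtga
Rplp2, chr7:141447636-141447665, plus strand: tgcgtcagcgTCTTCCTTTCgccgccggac
Rps6, chr4:86857353-86857382, minus strand: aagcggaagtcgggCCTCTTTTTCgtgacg

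A run of at least 6 pyrimidines lay in this window in 27 of the 43 members (62.8%), against 32.7% of the 27025 genes with a window. Some genes have several annotated starts, and a gene counted here and below when any of its windows held the letters. The 43 members had 51 windows, and all genes 32851. Rps24 has another annotated start, not shown, without such a run. The longest runs were 21 bases in Rpl7a and 19 bases in Rpl27a. No such run was present at the annotated start of Rplp0 or Rpl41, which says only that these letters are not in this window. In the full 300 bases, searched on both strands, CCGGAAGT (the core of ETS family sites) occurred in 23.3% of the members and 4.31% of all genes. AAGATGGC, the core of YY1 sites, occurred in 9.3% of the members and 3.19% of all genes. GGGCGG, the GC box, occurred in 58.1% of the members and 38.2% of all genes, and TATAAA, the TATA box, in 14.0% of the members and 15.7% of all genes. None of these motifs contains another, and a match is a description of the letters, not a site.

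No ribosomal protein gene passed the test of a 24 h cosine curve. The count was 0 of 46, against 0.0389% of the 12870 genes tested (5 genes, limma adjusted p under 0.05), and at an unadjusted p under 0.05 there were 506 genes and 1 member. That member was Rps4l, a relative of Rps4x, with a fitted log2 amplitude of 1.11 ± 0.38 (SE). Its peak was 8.04 h after lights on and its limma adjusted p 0.949. Its signal was 19 in 4am a and 14 in 4am b, 2 arrays of high Gapdh ratio, against at least 341 in every other array. The next in order were Rps4x (amplitude 0.20), Rpl12 (0.42), Rpl35 (0.20), Rpl27a (0.85) and Rps29 (0.21), all with the same adjusted p of 0.949. The median amplitude over the 46 was 0.17, and 0.19 over all genes tested. Adding a 12 h harmonic to the curve left the count at 0.

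Some members differed between collection times when the pattern was left free. In a limma test of any difference between the 6 times, 18 of 46 passed (39.1%), against 17% of all genes tested. They were 8 large subunit genes (Rpl4, Rpl7a, Rpl8, Rpl10a, Rpl12, Rpl19, Rpl41 and Rplp0) and 10 small subunit genes (Rps2, Rps3, Rps9, Rps10, Rps14, Rps15, Rps19, Rps24, Rps25 and Rps27). None of the 4 relatives tested was among them on the set used, while a further set of Rpl7l1 passed (limma adjusted p 0.0441 over all probe sets). The lowest limma adjusted p values were 0.0147 for Rpl19, 0.0155 for Rpl7a and Rps2, 0.0186 for Rplp0, 0.0207 for Rps10 and 0.0225 for Rps19. With 1 array left out at a time, Rpl19, Rpl7a, Rps2 and Rplp0 kept this call in all 18 fits. Rps10 kept it in 17, Rps19 in 16, Rpl41 in 15 and Rpl12 in 12. Rps27 kept it in only 9, Rpl8 in 5, Rps15 in 4, Rps24 and Rps25 in 3, and Rps3 and Rps14 in 2. After quantile normalization, which gives every array the same distribution of signals, 7 members passed (15.2%, against 15.3% of all genes), 6 of them shared with the 18.

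**Figure D1:**
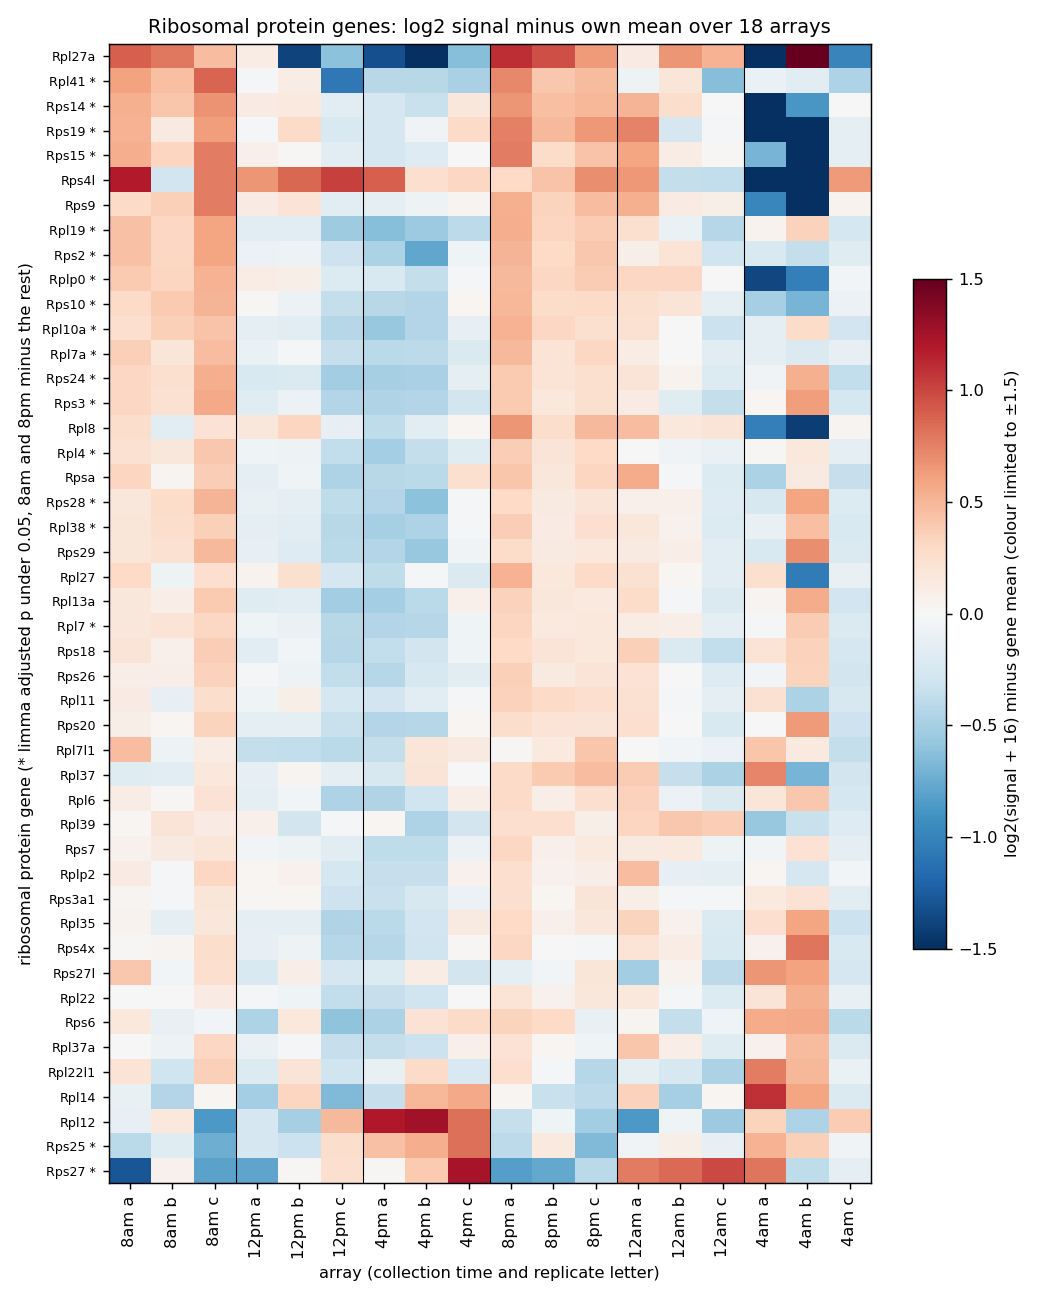
Log2(signal + 16) of each tested member minus its own mean, by gene (down) and array (across, a to c at each time); red is above the mean and blue below, and asterisks mark members past the threshold for 8am and 8pm minus the other 4 times. Most rows are red at 8am and 8pm and blue at 12pm and 4pm (42 of 46 differences above 0 for 8am and 8pm minus the rest, and 30 of 46 after quantile normalization), while Rpl14, Rpl12, Rps25 and Rps27 run the other way.

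With the authors' scaling, most members were high at both 8am and 8pm, which lie 12 h apart, 1 h after lights on and 1 h after lights off. The mean log2(signal + 16) over the 49 members was 12.61 ± 0.10 at 8am, 12.32 ± 0.11 at 12pm, 12.29 ± 0.18 at 4pm, 12.68 ± 0.07 at 8pm, 12.52 ± 0.15 at 12am and 12.32 ± 0.05 at 4am (SD, n = 3 arrays each). Of the 49 members, 39, 30 and 42 lay above their own median in the 8am arrays and 42, 43 and 40 in the 8pm arrays. The 12pm arrays had 9, 16 and 7 such members, the 4pm arrays 5, 9 and 23, the 12am arrays 41, 29 and 8, and the 4am arrays 23, 29 and 6. Array 12am a was as high as the 8am and 8pm arrays, so the groups overlapped at the level of single arrays.

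**Figure D2:**
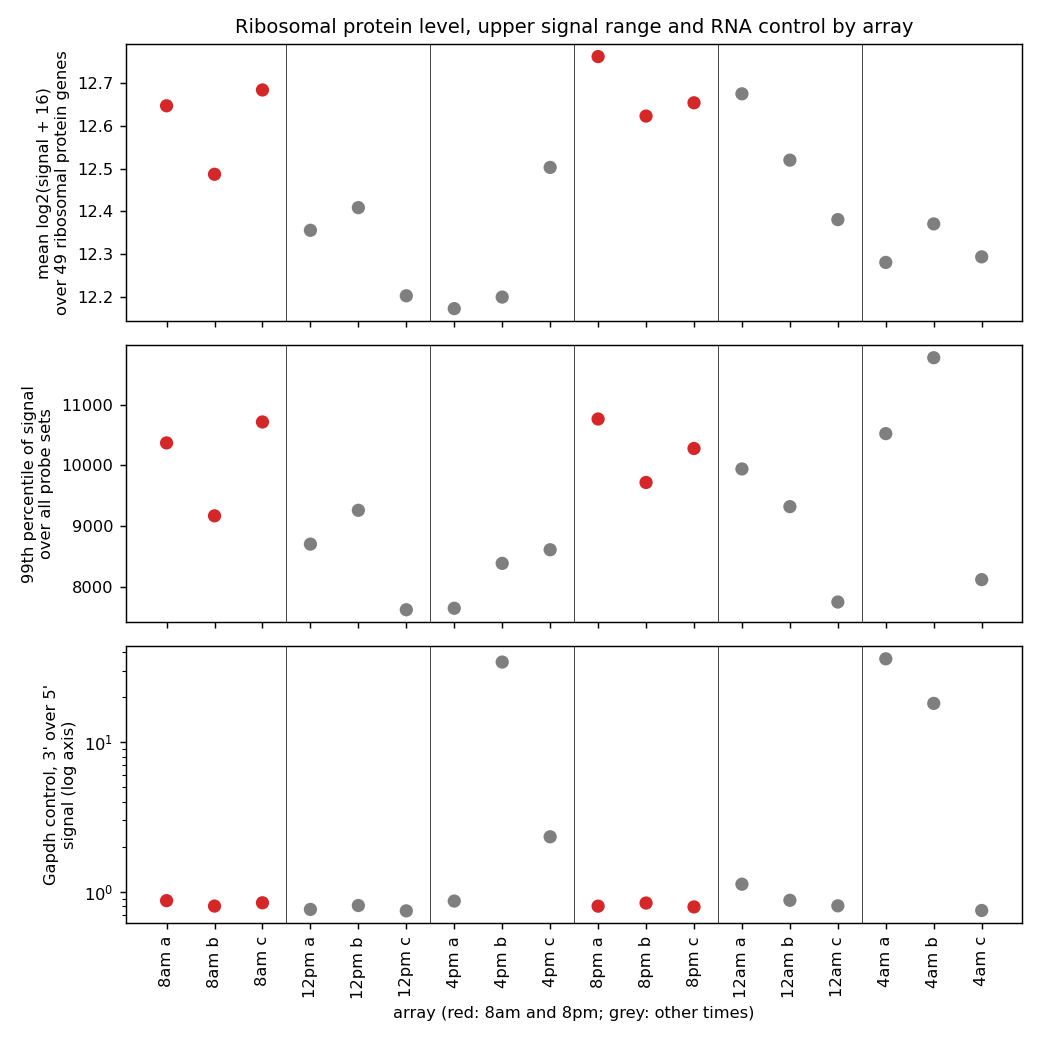
Per array in collection order: mean log2(signal + 16) over the 49 members (top), 99th percentile of the signal over all probe sets (middle) and 3′ to 5′ ratio of the Gapdh control on a log axis (bottom); red points are 8am and 8pm, grey points the other 4 times. The member mean lies between 12.49 and 12.76 in the 8am and 8pm arrays and between 12.17 and 12.67 in the other 12. The 99th percentile lies between 9172 and 10764 in the 8am and 8pm arrays and between 7629 and 11772 in the other 12.

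The contrast of 8am and 8pm with the other 4 times was chosen with this pattern known, so its tests describe the arrays and are not independent evidence. Here 16 of 46 members were higher and 2 lower (limma adjusted p under 0.05), against 5.85% of all genes higher and 10.8% lower (16.6% in all). The log2 difference was above 0 for 42 of 46 members with a median of 0.33, against a median of -0.05 over all genes. After quantile normalization it was above 0 for 30 of 46 with a median of 0.07, and 5 members were called higher (Rpl10a, Rpl19, Rpl41, Rps2 and Rps24) and 3 lower (Rpl22, Rpl37a and Rps27), 17.4% in all against 14% of all genes, which is near the background. With each array centred on its median, a scaling that moves the median of all genes to 0.10, the counts were 21 higher and 1 lower (47.8%, against 15.4% of all genes) and the median over the members was 0.48. The upper end of the signal scale moved with the same times: the 99th percentile over all probe sets had a median of 10325 in the 8am and 8pm arrays and 8661 in the other 12. Its part in the result was not tested beyond these scalings.

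**Figure D3:**
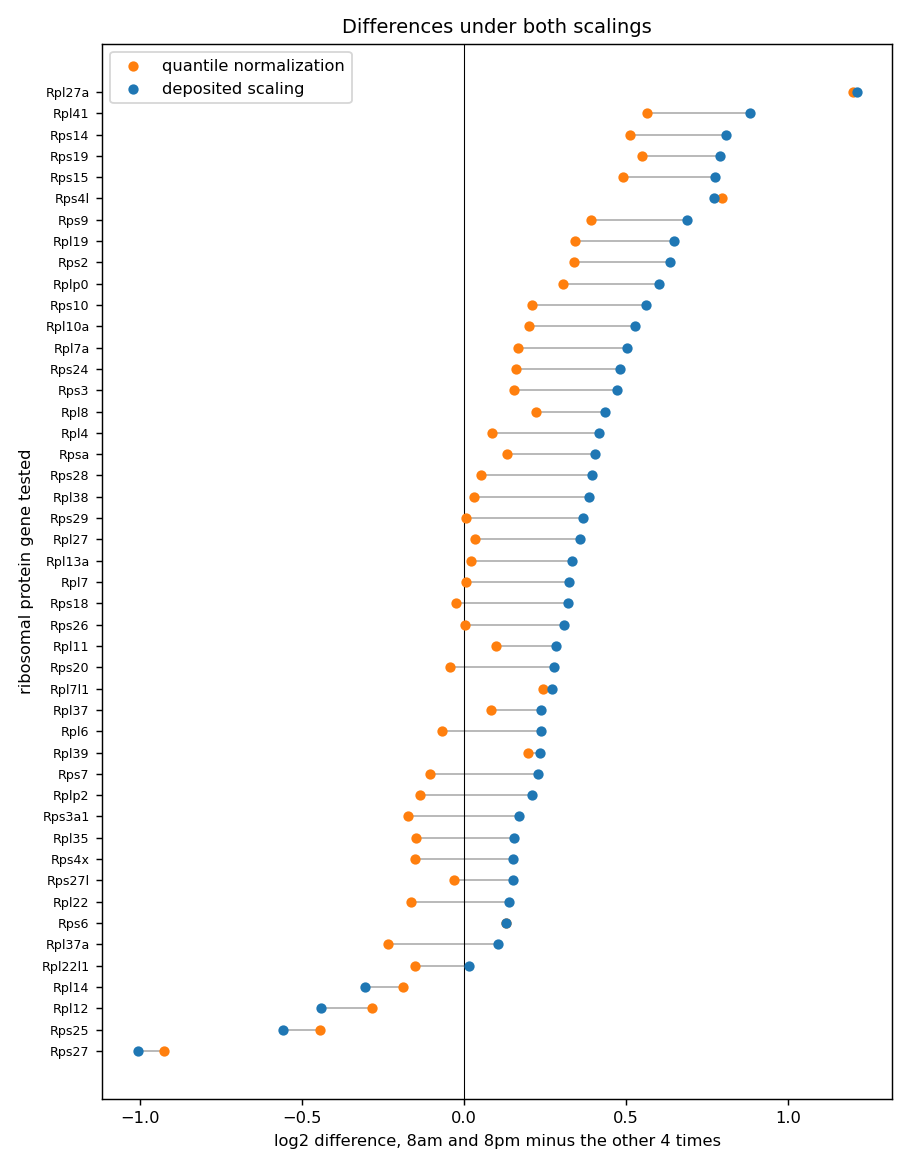
Log2 difference, 8am and 8pm minus the other 4 times, for each of the 46 members (down the page) with the authors' scaling (blue) and after quantile normalization (orange). After quantile normalization most members lie further left and 30 of 46 are above 0, against 42 of 46 with the authors' scaling, while Rps27 is close to -1 under both.

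Among large subunit genes, 8 of 24 were higher and none lower. Rpl7a is a core protein of the large subunit, encoded at chr2:26910685-26913312 (GRCm38.p6). Its signal was 21518, 19059 and 23123 in the 8am arrays, 15603, 16569 and 13140 in those of 12pm, 12614, 12793 and 14385 in those of 4pm, 23414, 19316 and 20837 in those of 8pm, 18150, 16808 and 15005 in those of 12am, and 15068, 14442 and 15327 in those of 4am. Every 8am and 8pm array was above every other array. The difference was 0.50 ± 0.09 on the log2 scale (SE, 1.42-fold) with a limma adjusted p of 0.00111, and it was 0.17 with an adjusted p of 0.175 after quantile normalization. Rpl19, which takes part in a bridge between the subunits, had signals of 16988, 18202 and 20687 (lowest, median, highest) in the 8am and 8pm arrays, against 8758, 11821 and 17356 in the other 12. Only 4am b among the other arrays reached into the 8am and 8pm range. The difference was 0.65 ± 0.12 (SE) with a limma adjusted p of 0.00162, and 0.34 with an adjusted p of 0.00156 after quantile normalization.

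Rpl41, a very small protein that also sits between the subunits, showed the largest difference among the members called higher. Its signal was 18270, 20086 and 25409 (lowest, median, highest) in the 8am and 8pm arrays, against 6569, 11342 and 15640 in the other 12, with no overlap. They differed by 0.88 ± 0.16 in log2 (SE, 1.85-fold; limma adjusted p 0.00171), and by 0.57 after quantile normalization (adjusted p 0.00722). Rplp0 anchors the stalk of the large subunit, which recruits elongation factors. Its signal was 20473, 21561 and 23577 in the 8am and 8pm arrays, against 6384, 16148 and 20473 in the other 12, and 12am a touched the lower edge of the 8am and 8pm range. The log2 difference was 0.60 ± 0.15 (SE; limma adjusted p 0.011), 0.39 without the 3 arrays of high Gapdh ratio (adjusted p 0.0035) and 0.31 after quantile normalization (adjusted p 0.268).

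The other large subunit genes called higher were Rpl4, whose loop lines the exit tunnel, Rpl7, Rpl10a and Rpl38, a protein known in the mouse for its role in translating Hox messages. Rpl4 had a log2 difference of 0.42 (limma adjusted p 0.00442), with no overlap between the 8am and 8pm arrays (18543 to 21933) and the other 12 (11575 to 18378). Rpl10a differed by 0.53 (adjusted p 0.00454), Rpl38 by 0.39 (adjusted p 0.0248) and Rpl7 by 0.33 (adjusted p 0.0402). After quantile normalization Rpl10a kept its call with 0.20 (adjusted p 0.0223). Rpl4 then had 0.09 (adjusted p 0.383), Rpl38 0.03 (adjusted p 0.693) and Rpl7 0.01 (adjusted p 0.955). Rplp2, the partner of Rplp0 in the stalk, had a difference of 0.21 (adjusted p 0.196). Rpl11, which binds Mdm2 when free of the ribosome, had one of 0.28 (adjusted p 0.0918), and Rpl13a, which is also known to leave the ribosome in human monocytes, one of 0.34 (adjusted p 0.0826). Further sets of Rpl13a gave 0.49 (limma adjusted p 0.0158 over all probe sets), -0.20 and -0.24.

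**Figure D4:**
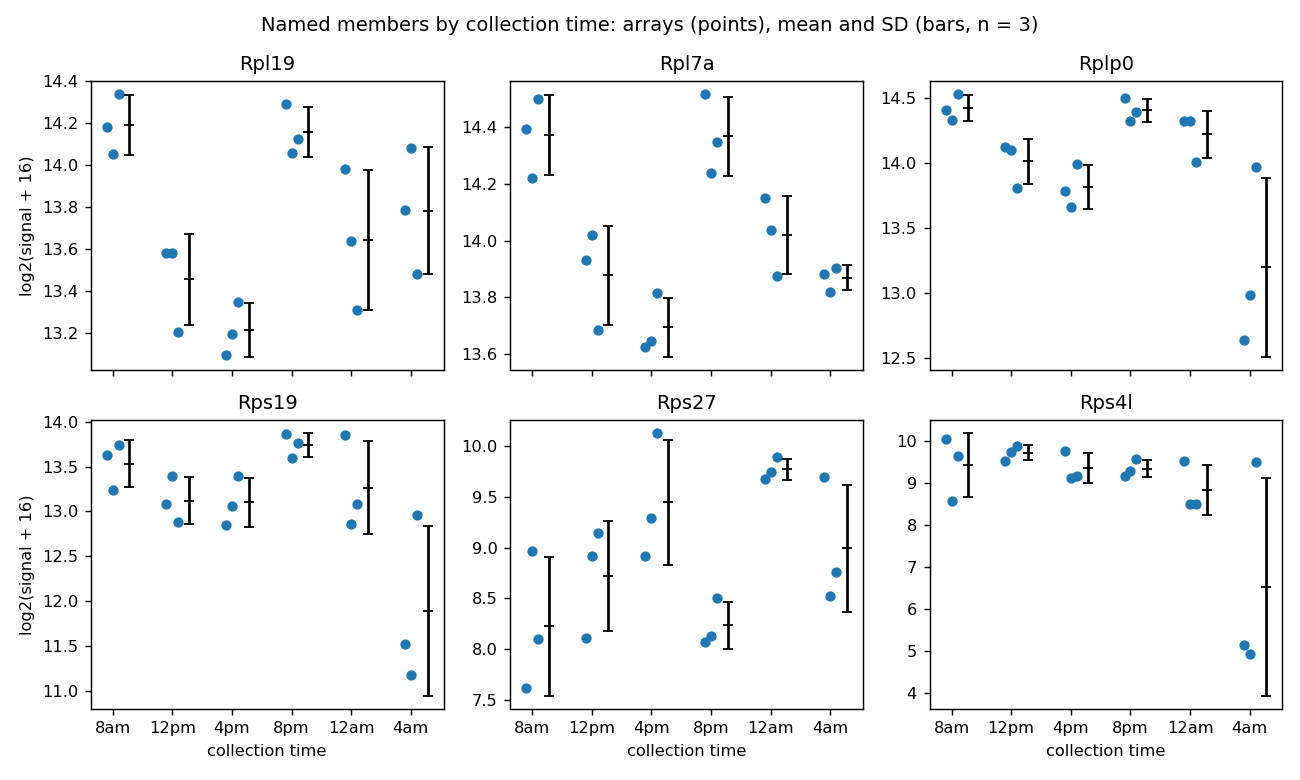
Log2(signal + 16) of 6 members by collection time, with 1 point per array and bars for the mean and SD of 3 arrays; each panel has its own scale. Rpl19 and Rpl7a are high at 8am and 8pm, Rplp0, Rps19 and Rps4l have 2 low arrays at 4am, and Rps27 is low at 8am and 8pm.

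Among small subunit genes, 8 of 22 were higher and 2 lower. Rps2, at the entry of the messenger RNA channel and encoded at chr17:24718121-24721927, had signals of 18741, 20485 and 22963 (lowest, median, highest) in the 8am and 8pm arrays, against 8908, 13285 and 17624 in the other 12. The groups did not overlap, and the log2 difference was 0.64 ± 0.11 (SE; limma adjusted p 0.00124). Rps10, at the same channel entry, had 22874, 23922 and 26962 in the 8am and 8pm arrays, against 11631, 17420 and 22264 in the other 12, again without overlap. Its difference was 0.56 ± 0.11 (SE; limma adjusted p 0.00303). After quantile normalization Rps2 kept its call with a difference of 0.34 (adjusted p 0.0317), and Rps10 had 0.21 (adjusted p 0.232). Rps3, also at the channel entry, differed by 0.47 (limma adjusted p 0.0148), a call lost without 8am c, and Rps28 by 0.40 (adjusted p 0.0395). After quantile normalization Rps3 had 0.16 (adjusted p 0.0807) and Rps28 0.05 (adjusted p 0.519).

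Rps14, Rps15 and Rps19 had large differences that rested in part on low signals in 2 arrays. Rps19, mutated in human Diamond-Blackfan anaemia, had signals of 9652, 13110 and 14840 (lowest, median, highest) in the 8am and 8pm arrays, against 2302, 8240 and 14753 in the other 12. Arrays 4am a and 4am b were lowest, with 2933 and 2302, while 12pm b, 4pm c and 12am a lay within the 8am and 8pm range. The groups differed by 0.79 ± 0.21 on the log2 scale (SE; limma adjusted p 0.0196), and by 0.52 without the 3 arrays of high Gapdh ratio (adjusted p 0.0161). Rps15, near the decoding site, differed by 0.78 (adjusted p 0.0331) and by 0.53 without these arrays (adjusted p 0.00306). Rps14, the gene tied to the anaemia of human 5q deletion, differed by 0.81 (adjusted p 0.048) and by 0.48 without them (adjusted p 0.00266). With 1 array left out at a time, Rps14 kept its call in 3 of 18 fits, Rps15 in 11 and Rps19 in 15 (it lost it without 8am a, 8am c or 8pm a). After quantile normalization Rps14 had 0.51 (adjusted p 0.235), Rps15 0.49 (adjusted p 0.171) and Rps19 0.55 (adjusted p 0.107).

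Rps27 and Rps25 were the 2 members called lower at 8am and 8pm. Rps27, a zinc-binding protein of the small subunit, had signals of 180, 483 and 258 in the 8am arrays, 260, 467 and 549 in those of 12pm, 469, 609 and 1105 in those of 4pm, 253, 264 and 346 in those of 8pm, 804, 842 and 933 in those of 12am, and 817, 351 and 416 in those of 4am. The 3 arrays of 12am, 4pm c and 4am a were the highest, and the groups overlapped, chiefly through 8am b and 12pm a. The log2 difference was -1.0 ± 0.24 (SE, 2.01-fold lower; limma adjusted p 0.0092), and -0.92 after quantile normalization (adjusted p 0.0159). Rps25, which some viral messages need to start translation, had signals of 243, 309 and 460 (lowest, median, highest) in the 8am and 8pm arrays, against 326, 468 and 741 in the other 12. Only 8am b and 8pm b reached into the range of the others. Its difference was -0.56 ± 0.15 (SE; limma adjusted p 0.0207), and -0.44 after quantile normalization (adjusted p 0.069). The call was lost when 8am c, 8pm a or 8pm c was left out.

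Both genes were read by probe sets of low signal, and the direction of the difference followed the brightness of the probe set. Of the 34 members with a mean log2 signal of 13 or more, 34 had a difference above 0, with a median of 0.39 and 47.1% called. The 221 other genes in that band showed the same direction in 93.7%, with a median of 0.28 and 27.1% called. Of the 7 members under a mean log2 of 10, 3 were above 0, as were 38% of the 8765 other genes there (median -0.13). In the band from 10 to 13, 5 of 5 members were above 0 and none was called, while 59% of the 3838 other genes were above 0 and 11.6% were called. Over all 105 probe sets of the members, 68 of 69 sets with a mean of 12 or more were above 0, against 8 of 31 under 10.

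**Figure D5:**
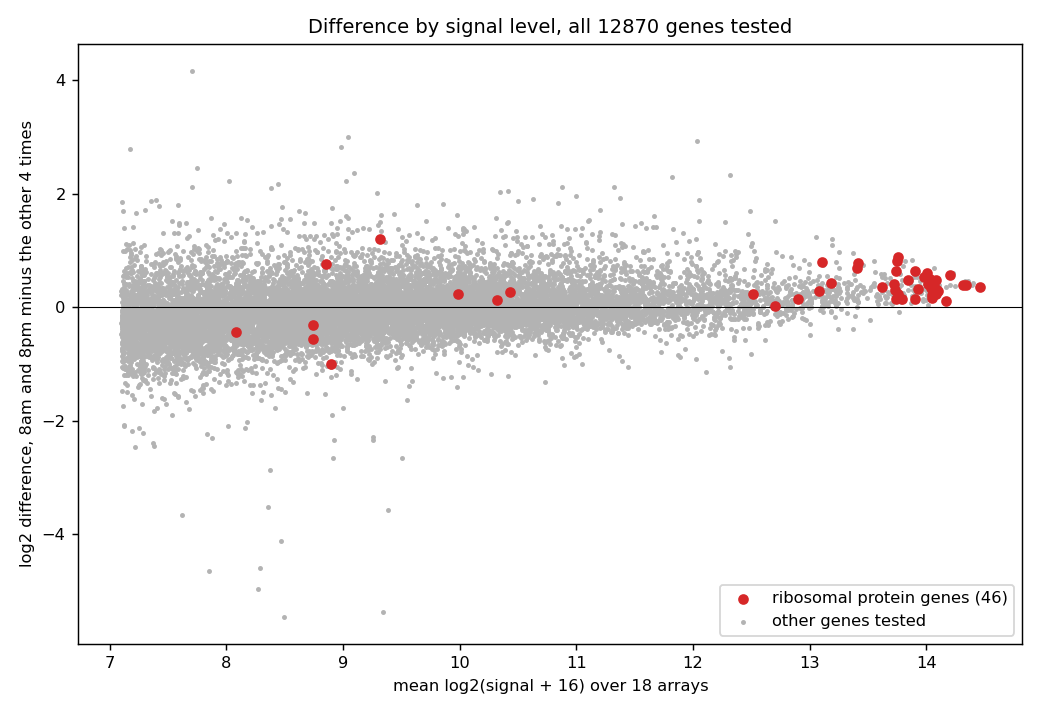
Log2 difference, 8am and 8pm minus the other 4 times, against the mean log2(signal + 16) over 18 arrays for all 12870 genes tested, with the 46 members in red. The bright end of the scale, where 34 members lie, is above 0 for members and other genes alike, and 3 of the 7 members under a mean of 10 are above 0.

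Rps24, another gene of human Diamond-Blackfan anaemia, showed both directions within 1 gene. On the set used, its signal was 20010, 20989 and 25362 (lowest, median, highest) in the 8am and 8pm arrays, against 12069, 15011 and 25035 in the other 12, which overlapped, and the difference was 0.48 ± 0.12 (SE; limma adjusted p 0.0132). Its 4 bright probe sets, with mean log2 signals between 13.3 and 14.1, gave differences of 0.48, 0.61, 0.66 and 0.52. Its 2 dim sets, with means of 8.27 and 7.29, gave -1.69 (limma adjusted p 0.000602 over all probe sets) and -0.94 (adjusted p 0.0783). Rpl41 likewise had 0.88 and 0.45 on its 2 bright sets and -0.02 and -0.18 on its 2 dim ones. The bright sets of both genes carry the suffix _x_at, which marks probes that may match other transcripts, and ribosomal protein genes have many processed copies in the genome. With _x_at and _s_at sets left out, Rps24 stood at -1.69 and Rpl41 at -0.18. Over all members, that fit called 16 of 41 at 8am and 8pm (39%, against 16.4% of all genes). The median log2 difference there was 0.28, against -0.04 over all genes. The part of matches to other transcripts was not tested. Of the 49 sets used, 14 were _x_at and 2 were _s_at. Among the 56 further sets of members, 37 had the sign of the set used.

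The contrast of 4pm and 4am with the other 4 times shares its arrays with that of 8am and 8pm, so the 2 are not independent. It gave 2 members higher and 15 lower of 46, against 13.4% of all genes higher and 11.7% lower (25.1% in all). After quantile normalization 3 were higher and 9 lower (26.1% in all, against 25.8% of all genes), which is near the background. Rpl12, a protein at the base of the stalk, was higher, but it was read from 1 dim probe set with a mean signal of 284. Its signal was 607, 632 and 465 at 4pm and 326, 181 and 338 at 4am, against 134 to 286 at 8am and 8pm and 133 to 364 at 12pm and 12am. The 4pm arrays were above every other array, and the 4am arrays were not. The log2 difference was 0.88 ± 0.20 (SE; limma adjusted p 0.00961), and 0.99 both after quantile normalization (adjusted p 0.00457) and without the 3 arrays of high Gapdh ratio (adjusted p 0.0485). Rps25 was also higher, by 0.66 ± 0.15 (SE; adjusted p 0.00983), and by 0.51 without these arrays (adjusted p 0.152).

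Rps14, Rplp0 and Rpl8 were among the members called lower at 4pm and 4am, and 2 arrays gave their lowest signals. Rps14 stood at 1906 in 4am a and 7527 in 4am b, against at least 10902 in every other array. Rplp0 stood at 6384 and 8100 there, against at least 12909 elsewhere, and Rpl8, close to the peptidyl transferase centre, at 4568 and 3484 against at least 7164. These 2 arrays were thus below all others for these genes, and both had a high Gapdh ratio. Without the 3 arrays of high Gapdh ratio, 2 members passed in place of 17 (Rpl12 higher and Rpl27a lower), against 3.23% of all genes. The median log2 difference over the 46 was -0.21 with all arrays, -0.30 without these and -0.02 after quantile normalization.

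Without the same 3 arrays, the contrast of 8am and 8pm called 30 members higher and 2 lower, against 33.5% of all genes, and all 18 earlier calls were among them. The higher ones then included Rpsa, the laminin receptor, with a difference of 0.41 (limma adjusted p 0.0272), Rps7 with 0.26 (adjusted p 0.0234), Rps29 with 0.42 (adjusted p 0.00333) and Rpl27a with 1.35 (adjusted p 0.000201). Rps6, the substrate of S6 kinase, stood at 0.32 (adjusted p 0.116). The test of any difference called 18 members without these arrays (39.1%, against 23.2% of all genes), 14 of them shared with the fit of all arrays.

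The genes with the widest and the narrowest spread over the 18 arrays differed in how they met these arrays. Rps4l had the largest SD, 1.46 on the log2 scale, with signals of 19 in 4am a and 14 in 4am b against 341 to 1042 in the other 16. Its call at 4pm and 4am (log2 difference -1.39, limma adjusted p 0.046) turned to 0.16 without the 3 arrays (adjusted p 0.784). Rpl27a, with an SD of 1.42, stood at 6895 in 4am b, against 66 to 1352 in the other 17, and its lowest value was in 4pm b. The smallest SDs were 0.17 for Rps3a1, 0.19 for Rps7 and 0.22 for Rplp2. Rps3a1 ranged from 13410 to 20059 over all arrays.

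None of the 4 relatives of core genes tested was called at 8am and 8pm with all arrays on the probe set used. Rpl22l1, the relative of Rpl22, had a log2 difference of 0.02 against the other times (limma adjusted p 0.952), Rps27l, a known p53 target, one of 0.15 (adjusted p 0.496) and Rpl7l1 one of 0.27 (adjusted p 0.189). A further, dimmer set of Rpl7l1 gave 0.67 (limma adjusted p 0.0192 over all probe sets), and another gave -0.02. Rps4l had 0.77 (adjusted p 0.290). Without the 3 arrays of high Gapdh ratio, Rpl7l1 was called with 0.40 (adjusted p 0.0144) and Rps27l with 0.33 (adjusted p 0.0337), while Rps4l stood at -0.00. Rpl39l, known from male germ cells, had signals of 12, 65 and 93 (lowest, median, highest) in the 8am and 8pm arrays, against 49, 90 and 129 in the other 12. Rpl3l, known from skeletal and heart muscle, had 17, 66 and 120 in the 8am and 8pm arrays, against 33, 73 and 275 in the other 12. Both overlapped between the groups and lay under the filter. Rps16 is a core gene, but its only set had a mean signal of 8.98, below the filter.

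No member passed the test of light against dark. The count was 0 of 46 for the 3 times in the light minus the 3 in the dark, against 0% of all genes by limma. At an unadjusted p under 0.05 there were 799 genes and 5 members. The largest was Rps4l, with 1.26 ± 0.46 (SE; limma adjusted p 0.748), and 0.31 without the 3 arrays of high Gapdh ratio (adjusted p 0.966). Rpl12 had 0.48 and Rpl19 -0.24, with the same adjusted p. The difference was below 0 for 37 of 46 members with the authors' scaling (median -0.15) and for 40 of 46 without the 3 arrays of high Gapdh ratio (median -0.08), but for 18 of 46 after quantile normalization (median 0.02).

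No member passed a test between times 12 h apart either. Between 8am and 8pm, 0 of 46 were called, against 0.00777% of all genes by limma (1 gene; unadjusted, 368 genes and 0 members passed 0.05), and the median difference was -0.00. The lowest unadjusted p values were those of Rpl37 (-0.44), Rpl8 (-0.36) and Rpl11 (-0.21). Between 12pm and 12am, 0 of 46 were called, against 0.0233% of all genes (3 genes; unadjusted, 1041 genes and 2 members). Rps27 was lowest in p with -1.05 ± 0.39 (SE; limma adjusted p 0.529), followed by Rpl39, a protein of the exit tunnel, with -0.44 (adjusted p 0.564). Between 4pm and 4am, 0 of 46 were called, against 0.0466% of all genes (6 genes; unadjusted, 2536 genes and 13 members). The lowest p there was that of Rps4l with 2.82 ± 0.79 (SE; limma adjusted p 0.14), which rests on 4am a and 4am b and was -0.03 without the 3 arrays of high Gapdh ratio (adjusted p 0.995). For 12pm and 12am against the other 4 times, 0 of 46 were called, against 14% of all genes (7.21% higher and 6.74% lower; unadjusted, 4377 genes and 7 members), with Rpl19 lowest in p (-0.29, adjusted p 0.0968).

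Other genes of translation were read in the same fits from lists chosen with earlier results of these data known. Of 6 elongation factor genes tested, 3 were higher at 8am and 8pm and none lower (50%, against 16.6% of all genes). The median log2 difference was 0.61 (0.29 and 1 call after quantile normalization, and 0.33 without the 3 arrays of high Gapdh ratio). Eef1d, part of the factor that recharges Eef1a1, differed by 1.09 ± 0.15 (SE; limma adjusted p 0.000212), and Eef1a1, which brings aminoacyl tRNA to the ribosome, by 0.39 (adjusted p 0.0253, and 0.02 after quantile normalization). Fau, which encodes a ubiquitin-like protein fused to a protein of the small subunit, was the single gene of its list tested. It differed by 0.62 ± 0.13 (SE; adjusted p 0.00476), and by 0.33 after quantile normalization (adjusted p 0.102).

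Of 24 initiation factor genes, 2 were higher and none lower with the authors' scaling (8.33%, against 16.6% of all genes), and the same counts held after quantile normalization. The median log2 difference was 0.22, with 0.04 after quantile normalization and 0.16 without the 3 arrays. Eif3l, a subunit of the large scaffold that loads the small subunit, differed by 0.97 (limma adjusted p 0.000692), and Eif6, which keeps the large subunit apart until it is mature, by 0.62 (adjusted p 0.0156). Of 30 genes of ribosome assembly and ribosomal RNA processing, 3 were higher and none lower (10%, against 16.6% of all genes), with a median of 0.12 (0.04 without the 3 arrays). These were the nucleolar proteins Ncl with 0.95 (0.58 without the 3 arrays), Fbl with 0.69 and Dkc1 with 0.69. Of 12 genes of RNA polymerase I and its factors, none was higher and 1 was lower (8.33%, against 16.6% of all genes). This was Polr1a, the largest subunit of the polymerase, with -0.54 (adjusted p 0.0204). The median over the 12 genes was -0.03, with and without the 3 arrays.

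Of 21 genes of mTOR signalling and TOP control, 1 was higher and 2 were lower (14.3%, against 16.6% of all genes). The median was 0.01, and 0.02 without the 3 arrays. After quantile normalization 1 was higher and 1 lower. Sesn3, an inhibitor of mTOR complex 1, differed by 1.63 ± 0.18 (SE; limma adjusted p 5.87e-05), and by 1.60 after quantile normalization. Slc38a9, a lysosomal arginine sensor of the pathway, differed by -0.77 (adjusted p 0.00584), and Sesn1, a relative of Sesn3, by -0.71 (adjusted p 0.0332). Sesn1 was not called after quantile normalization (-0.60, adjusted p 0.0774), and stood at -0.46 without the 3 arrays (adjusted p 0.0395). Mdm2 and Cdkn1a, read as signs of free ribosomal proteins, had differences of 0.31 and 0.27, and neither passed.

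Markers of some cell types differed between the same arrays. The summed signal of 13 epithelial markers was 192197 to 226304 in the 8am and 8pm arrays, against 131652 to 193341 in the other 12. Of these markers 5 of 13 were called higher and none lower, against 5.85% of all genes higher. None was called after quantile normalization. The median log2 difference of these markers was 0.37 with all arrays and 0.36 without the 3 arrays of high Gapdh ratio. Bright genes went the same way. Among the 221 genes outside the members with a mean log2 of 13 or more, 93.7% were above 0 and 27.1% were called. The summed signal of 6 enteric neuron markers was 2338 to 3426 in the 8am and 8pm arrays, against 3482 to 6316 in the other 12, without overlap. Vip weighs most in this sum, with a median signal of 1846, against at most 667 for the others. Of the 6, 2 were called lower, against 10.8% of all genes lower. After quantile normalization 2 of the 6 were called lower and 1 higher. The summed signal of 8 smooth muscle markers was 46731 to 76815 in the 8am and 8pm arrays, against 20683 to 81977 in the other 12, with none called. Their median log2 difference was 0.23, with 0.01 after quantile normalization and -0.30 without the 3 arrays. The summed signal of 5 pancreatic enzyme genes was 6364 to 11473 in the 8am and 8pm arrays, against 7403 to 117246 in the other 12. Of these genes 4 of 5 were called lower, and 3 after quantile normalization. Among them Cela1 had a signal of at least 6116 in every array (median 10528.5), while Cpa1 had a median of 59.5 over the 18 arrays. The summed signals of markers of macrophages, fibroblasts, dividing cells, B and plasma cells, T cells, adipose and squamous tissue overlapped between the groups, with 1 squamous marker called lower and none of the others called. After quantile normalization 2 of 6 fibroblast markers were called lower as well. The part of these shifts in the ribosomal protein result was not tested.

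Set beside the start-site windows shown above, 9 of the 14 members called higher at 8am and 8pm that had a window held a pyrimidine run (64.3%), against 62.8% of all members with a window. Rpl7a and Rps10 have long runs and were called, as were Rplp0 and Rpl41, which have none there. Rplp2 and Rps6 have runs and were not called, and Rps27 has one and was called lower.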

How the data were processed

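RNA of whole distal colon was read on 18 one-colour Affymetrix arrays, 3 at each of 6 times. The deposited values are linear signal intensities, made by the authors with GCOS, per the submitters' processing notes (no version is given); by the values, the trimmed mean (2%) of every array is 500. Of 45101 probe sets, 64 are controls, 34945 carry 1 symbol in the platform annotation, 932 carry several and 9160 are not listed.

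From these, log2(signal + 16) was computed, and each gene was read from its brightest probe set by mean. Genes with a mean under the 40th percentile (7.10) were left out, which kept 12870. limma 3.58.1 (R 4.3.3; lmFit and eBayes with a trend) gave two-sided tests of a 24 h cosine curve, of any difference between times and of the named contrasts, with Benjamini-Hochberg adjustment over all genes tested and a threshold of 0.05. The steps were tested on simulated data. The members, lists and contrasts were chosen with earlier results of these data known.

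Named genes were those with the lowest adjusted p or largest differences in each test, the relatives of core genes, those with the largest and smallest SD, and a few members of known role. Of each comparison list, genes of lowest adjusted p were named. Alternatives varied the added constant, scaling, filter, probe set choice, moderation, array weights, the array letter as a block, and the arrays used. The array letters were not read as pairing samples, and the labels do not say what the letters stand for. Promoter windows came from RefSeq on GRCm38.p6.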

Additional observations from a re-analysis of the deposited data

How the results depend on the processing

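The values below count members called out of 46 by limma (49 without a filter), with the share of all genes called in the same fit in parentheses. The rhythm test gave 0 under every alternative run. The test of any difference, with 18 as reported, gave 7 after quantile normalization (15.3% of all genes), 11 without a filter (14.3%), 11 without a trend (16.3%) and 44 with array weights (70%). For 8am and 8pm minus the other times, with 18 as reported, quantile normalization gave 8 (14%), array weights 35 (37.3%), and leaving out the 3 arrays of high Gapdh ratio 32 (33.5%). For 4pm and 4am minus the others, with 17, centring on the median gave 10 (26.8%) and leaving out these arrays 2 (3.23%). Quantile normalization gave 12 for 4pm and 4am (25.8%). For 12pm and 12am minus the others, with 0, quantile normalization gave 1 (11.1%), centring 17 (24.5%), array weights 10 (43.7%), and leaving out _x_at and _s_at sets 1 (13.7%). Array weights also gave 14 for light minus dark (15.6%), 1 for 12pm minus 12am (3.43%) and 29 for 4pm minus 4am (26%), each 0 as reported. The mean level of the 46 at 8am and 8pm minus the others was 0.33, 0.10 after quantile normalization and 0.47 after centring. Centring also moved the median of all genes to 0.17 for 4pm and 4am and to -0.23 for 12pm and 12am. With 1 array left out in turn, counts ran from 6 to 27 for any difference (6.23% to 54% of all genes over the same fits). They ran from 10 to 27 for 8am and 8pm (9.55% to 26.8%) and 11 to 26 for 4pm and 4am (9.06% to 45.6%). For 12pm and 12am they ran from 0 to 10 (5.82% to 38.9%), and for 4pm minus 4am from 0 to 22 (0.0155% to 31.8%). For light minus dark they ran from 0 to 1 (0% to 7.44%), and they stayed at 0 for the other tests. The share of all genes thus moved widely over the same fits. Any difference gave 6 without 8am a, 8am c or 8pm a and 27 without 4am c, and 11 or fewer when any 1 array other than 12pm c, 4pm c, 4am b and 4am c was left out. For 8am and 8pm the count was 10 without 8am c, 11 without 8pm a and 27 without 4am b. For 4pm and 4am it was 11 without 4pm b and 26 without 4am b. The highest counts for 4pm minus 4am, 12pm and 12am, and light minus dark came without 4am c. Rps24 at 8am and 8pm turned to -0.060 as the mean of its probe sets and to -1.69 without _x_at and _s_at sets, and Rpl41 turned to -0.18 without such sets. Rps4l at 4pm and 4am turned to 0.16 without the 3 arrays. The cause of these changes was not tested.

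The arrays of a time share letters across times. With the letter as a replicate block, 13 members differed between times (13.7% of all genes), 15 were called at 8am and 8pm (15.9%) and 15 at 4pm and 4am (23.9%), and 0 in the other tests. Deviations of arrays with the same letter correlated from -0.49 to 0.30 (mean -0.01 over 45 pairs), and those with different letters from -0.59 to 0.63 (mean 0.01 over 90 pairs). The letters are therefore not read as pairing, though this does not exclude a link between arrays of the same letter. Precision is limited by 3 arrays per time, and the dimmest members lie close to background.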

Other observations

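The genes of the mitochondrial ribosome, which translates the messages of the mitochondrial genome, were read in the same fits for comparison. At 8am and 8pm against the other 4 times, 9 of 76 were higher and 3 lower by limma (15.8% in all, against 16.6% of all genes), with a median log2 difference of 0.14. After quantile normalization the counts were again 9 higher and 3 lower and the median was 0.14. Without the 3 arrays of high Gapdh ratio 19 were higher and 4 lower, against 33.5% of all genes called, with the same median. Mrpl12, a protein of the large subunit that also binds the mitochondrial RNA polymerase, differed by 1.44 ± 0.28 (SE; adjusted p 0.00292), and by 1.30 after quantile normalization. Mrpl40 was higher by 0.78 ± 0.14 (SE; adjusted p 0.0018). Mrps30 was lower, with a difference of -0.59 ± 0.11 (SE; adjusted p 0.00267), as was Mrpl33 with -0.66 ± 0.15 (SE; adjusted p 0.00778). In the test of any difference between times 11 of 76 passed (14.5%, against 17% of all genes), and 0 of 76 passed the test of a 24 h curve, with 1 at an unadjusted p under 0.05.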
